A study of Sus scrofa with 24 samples.

Results

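Coconut oil and beef tallow were compared as dietary fats in gilts, which are young female pigs that have not farrowed. Messenger RNA of the longissimus dorsi, the loin muscle, was measured in 3 gilts fed coconut oil and 3 gilts fed beef tallow, which are 6 of the 24 pigs of the study, with 1 oligonucleotide array per pig. The gilts were taken by the fat and sex in the labels. All were crossbreds of Landrace, Large White and Duroc, began the trial at about 71 kg and 130 days of age, and ate feed with 3.0% added fat. The fat was the only labelled difference between both groups, and no group ate feed without added fat. The labels describe 72 pigs in 24 pens of 3, with 6 pens for each fat, and do not give the pen of a sampled pig. Pigs were therefore treated as independent. Gilts fed coconut oil were pigs 1, 5 and 6 and gilts fed beef tallow were pigs 2, 8 and 10; values of 3 pigs are given in that order throughout. The barrows (castrated males) fed the same fats, pigs 15, 20 and 23 with coconut oil and pigs 16, 21 and 24 with beef tallow, serve as a comparison.

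Both fats are rich in saturated fatty acids. Those of coconut oil are mostly of medium chain length, with lauric acid the most abundant, while beef tallow carries mainly palmitic, stearic and oleic acid. The loin is a predominantly fast-twitch muscle. Its fibres burn glucose and fatty acids, and between them lie fat cells, fibroblasts that build the collagen network, vessels, nerves and immune cells, all of which contribute RNA to a whole-muscle sample.

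The arrays of the 6 gilts differed between the fats in 1 of 2 measures of RNA integrity. The log2 ratio of the 3' to 5' actin control probe sets was 1.30 ± 0.068 (SD, n = 3) with coconut oil and 1.34 ± 0.15 with beef tallow, and overlapped (exact permutation test, two-sided, p = 0.8). The median signal was 152.8 ± 4.69 (SD, n = 3) with coconut oil and 156.5 ± 2.78 with beef tallow (exact permutation test, two-sided, p = 0.3). GAPDH is probed near its 3' end and its 5' end, and the signal ratio of these control probe sets, which grows as RNA breaks down, was 1.17 ± 0.0090 with coconut oil and 1.10 ± 0.020 with beef tallow. Every gilt fed coconut oil had the higher ratio (exact permutation p = 0.1, the smallest that 3 against 3 allows), and the part of this ratio in the results below was not tested. All 8 skeletal muscle markers on the array passed the filter, and their summed signal was 258579 to 307699 with coconut oil and 251153 to 272292 with beef tallow. SOX10, ACAN, COL2A1 and IBSP, markers of Schwann cells, cartilage and bone, lay below the filter on dim probe sets.

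In gilts no probe set differed between coconut oil and beef tallow past the threshold. Of 14361 probe sets tested with limma, 0 (0%) had a Benjamini-Hochberg adjusted p under 0.05, and the smallest adjusted p was 0.449. At an unadjusted p under 0.05 there were 675 probe sets (4.7%), 300 (2.09%) with higher and 375 (2.61%) with lower values on coconut oil, where chance gives about 718. In 1659 probe sets (11.6%) the 3 signals of one fat did not overlap the 3 of the other. Chance alone separates 3 from 3 in this way with a probability of 0.1, so this share lay near that of chance. Of the 1659 probe sets, 772 (5.38%) were higher and 887 (6.18%) lower with coconut oil. That split turned with the scaling: after centring each array on its median, 954 were higher and 715 lower, and after quantile normalization 842 and 823. Differences over 2-fold were seen in 50 probe sets (0.348%) towards coconut oil and 135 (0.94%) towards beef tallow. The median SE of a difference was 0.26 on the log2 scale and the median half-width of its unadjusted 95% interval 0.53. The adjusted threshold over 14361 probe sets called for larger differences than this. Changes well above this size could therefore also go undetected, and RNF13 at -2.20 did not pass. Every gene difference below is coconut oil minus beef tallow on the log2(signal + 1) scale with its SE, and unless stated otherwise did not pass the threshold. Gene lists are described with 1 probe set for each of 5337 genes, of which 236 (4.42%) had higher and 345 (6.46%) lower values without overlap, and whose median difference was -0.02. Counts without overlap in the lists below are to be read against these shares.

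**Figure D1:**
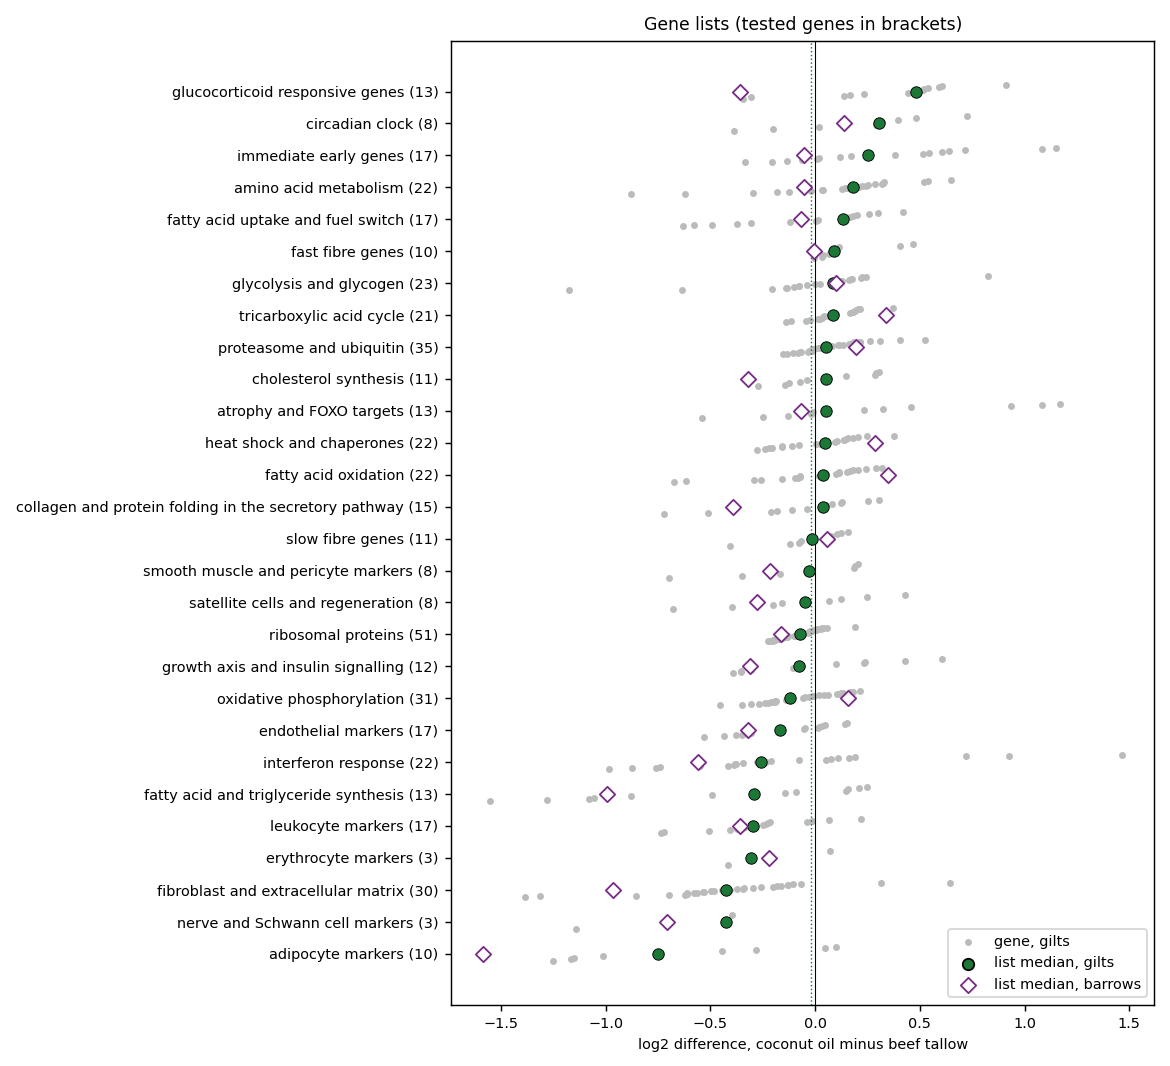
Log2 differences in gilts of the tested genes of 28 lists (grey points), with the list median in gilts (green circles) and in barrows (open diamonds); the dotted line is the median of all 5337 genes in gilts. In gilts the adipocyte markers had the lowest median, -0.75, and the glucocorticoid responsive genes the highest, 0.48.

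Small list medians depended on single gilts. When each of the 6 gilts was left out in turn, the median of 15 of the 28 lists changed sign at least once and that of 13 did not; the range over the 6 omissions is given with the lists below.

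Genes of fibroblasts and of the extracellular matrix had lower values in gilts fed coconut oil. Of 30 tested genes, 28 had a negative difference, against 53.0% of all genes, and the list median was -0.42. None passed the threshold; 9 did not overlap, all of them lower with coconut oil, and 5 had an unadjusted p under 0.05, against 3.93% of all genes. Some of these genes, among them POSTN, THY1, FBN1, DCN and SFRP1, were picked from an earlier comparison of both sexes that held these gilts, so their direction here is no independent evidence. In whole muscle, fewer cells of a type and less RNA per cell cannot be told apart.

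Periostin (POSTN), a secreted protein of growing and remodelling connective tissue, had signals of 361, 279.7 and 216 with coconut oil and 759.7, 544 and 944 with beef tallow. The highest gilt on coconut oil was below the lowest on beef tallow. The difference was -1.38 ± 0.52 (95% interval -2.47 to -0.30), or 2.61-fold lower with coconut oil, at an unadjusted p of 0.015 (limma). In the gilts fed olive oil POSTN lay at 392 to 1119.9 and in those fed soybean oil at 422 to 1035. THY1, a surface protein of fibroblasts, had signals of 2482, 3174 and 2257 with coconut oil and 3611, 5307 and 3955 with beef tallow. These groups did not overlap either, with a difference of -0.70 ± 0.25, and the other THY1 probe sets pointed the same way. Fibrillin 1 (FBN1), the scaffold of elastic microfibrils, was at 2972, 3267 and 2773 with coconut oil and 3494, 5015 and 4321 with beef tallow. Its difference of -0.50 ± 0.22 was smaller, and again each gilt on beef tallow was above each gilt on coconut oil.

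The collagen VI chain COL6A2, part of the sheath around muscle fibres, gave 1173, 1125 and 962 with coconut oil and 1597, 1529 and 1856 with beef tallow. All 3 coconut oil values were the lower ones, with a difference of -0.61 ± 0.26. SFRP1, a secreted inhibitor of Wnt signalling, had signals of 206, 201 and 259.7 with coconut oil and 322, 1106 and 467 with beef tallow, a difference of -1.31 ± 0.58 in which pig 8 held the highest value. The other genes without overlap were the collagen chains COL1A2 (-0.58) and COL5A2 (-0.62), fibronectin FN1 (-0.53) and the fibroblast protease FAP (-0.61). Decorin (DCN), the main small proteoglycan of muscle, overlapped between the groups, at 12494, 16764 and 14696 with coconut oil and 13782, 22496 and 20182 with beef tallow, a difference of -0.34 ± 0.24. The genes with higher values on coconut oil were COL3A1 (0.64), a fibrillar collagen, and TIMP3 (0.32), an inhibitor of matrix proteases.

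The mean log2 value over the 30 matrix genes, centred over the 24 pigs, was -0.27, -0.21 and -0.33 in the gilts fed coconut oil and -0.12, 0.30 and 0.25 in those fed beef tallow. The groups did not overlap, which chance alone gives for a single value with a probability of 0.1. Among the 28 lists the mean of the clock genes also separated the gilts. It was -0.05, -0.03 and 0.32 with coconut oil and -0.20, -0.10 and -0.07 with beef tallow. Some matrix genes were picked from a comparison that held these gilts, so the separation of their mean is no independent evidence. In the matrix mean pig 2 stood closest to the coconut oil gilts. The list median was -0.59 without pig 2 and -0.24 without pig 8. Summed signals of 5 fibroblast markers were 19140 to 24942 with coconut oil and 21935 to 34961 with beef tallow, so those ranges overlapped. Among genes of collagen and general protein folding in the secretory pathway, 9 of 15 had a positive and 6 a negative difference (median 0.04, -0.20 to 0.09 over the omissions). The collagen prolyl isomerases FKBP10 and FKBP14 were the members without overlap. FKBP10 signals were 301, 165 and 174 with coconut oil and 302, 365 and 352 with beef tallow, a difference of -0.72 ± 0.33, with pig 1 just below pig 2. FKBP14 differed by -0.51 ± 0.34.

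**Figure D2:**
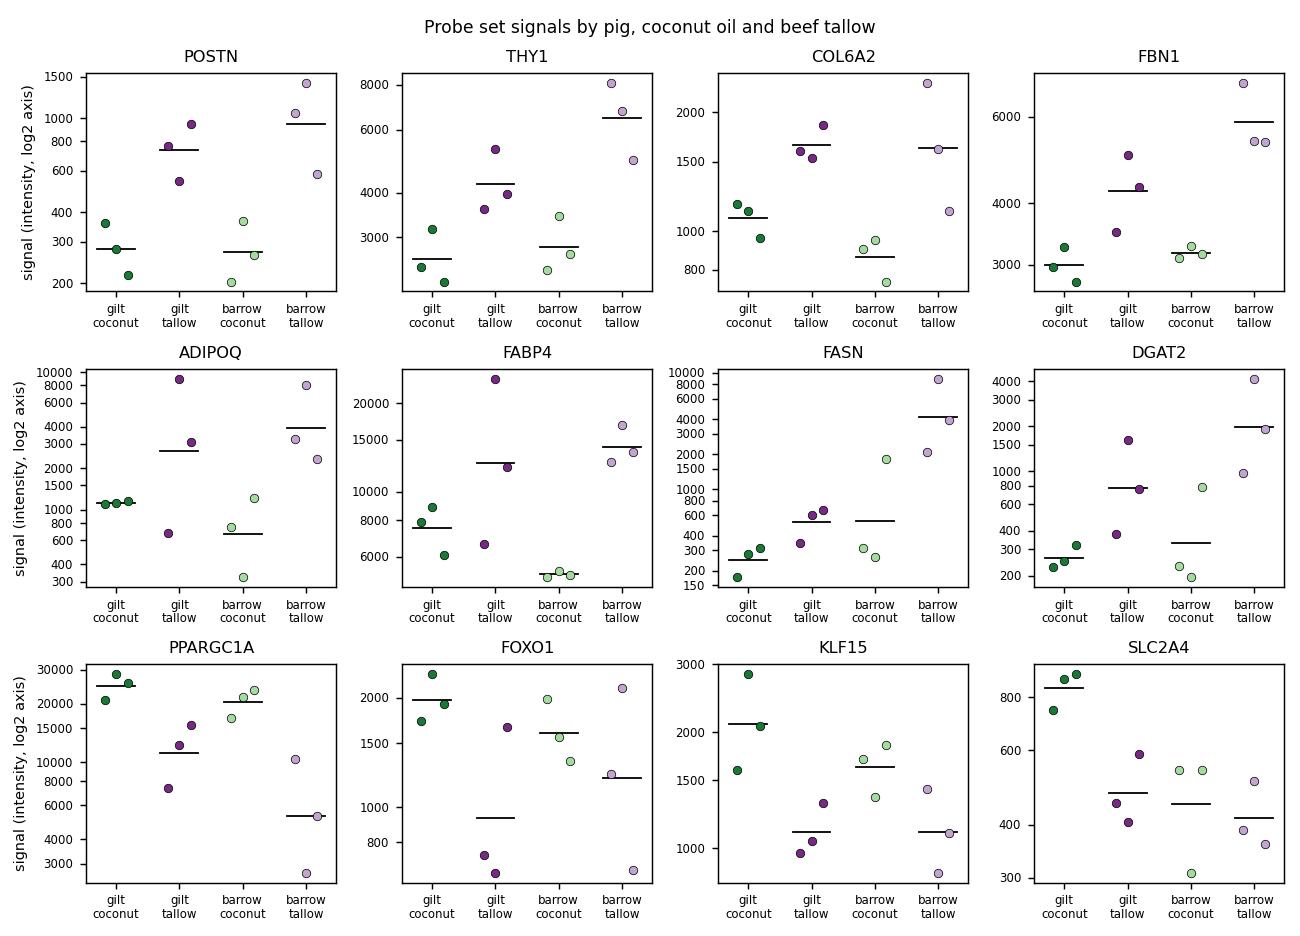
Probe set signals (log2 axis) of 12 genes in each pig fed coconut oil or beef tallow, by sex, with the group mean of the log2 values as a bar. The matrix genes of the top row are lower in every coconut oil gilt than in every beef tallow gilt. In ADIPOQ the beef tallow gilts spread around the coconut oil gilts. In FABP4 they run from within the coconut oil range to above it. PPARGC1A, FOXO1, KLF15 and SLC2A4 are higher in every coconut oil gilt.

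Markers of fat cells had the lowest median of all lists, -0.75, yet none of their 10 tested genes separated the groups. The gilts fed coconut oil were close together, while those fed beef tallow ranged from below them or among them to well above them. Adiponectin (ADIPOQ), a hormone made by fat cells, had signals of 1098, 1115 and 1150.1 with coconut oil and 679, 8944 and 3118 with beef tallow. Pig 2 was below every gilt fed coconut oil, and pig 8 was far above every other gilt. The difference was -1.25 ± 0.82 (95% interval -2.95 to 0.45). FABP4, the fatty acid carrier of fat cells, was at 7857, 8833 and 6077 with coconut oil and 6625, 24254 and 12127 with beef tallow, a difference of -0.74 ± 0.38. PPARG, the master regulator of fat cell formation, was at 169, 204 and 185 with coconut oil and 156, 892 and 524 with beef tallow, a difference of -1.17 ± 0.56; in both genes pig 2 lay within or below the coconut oil range. Leptin (LEP), another fat cell hormone, differed by 0.05 ± 0.35, and its sign turned without pig 2, 5 or 10. The adipocyte marker CEBPA lay below the filter and was not tested. Its signals did not overlap, at 20.7 to 34.1 with coconut oil and 75.4 to 302.6 with beef tallow. All its coconut oil values were below the filter signal of 87.2, near the floor.

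The mean over the adipocyte markers was -0.41, -0.39 and -0.37 with coconut oil and -0.85, 1.34 and 0.33 with beef tallow. Without pig 8 the list median was -0.21, and without pig 2 it was -1.32. Summed signals of the 5 tested adipocyte markers had the same spread: 7737 to 10490 with coconut oil and 7715 to 34884 with beef tallow. The list medians of adipocyte markers, matrix genes and lipid synthesis genes were all negative in these gilts. Pig 2 had the lowest adipocyte mean (-0.85) and a matrix mean (-0.12) above every coconut oil gilt. Its lipid synthesis mean (-0.61) lay among those of the coconut oil gilts (-0.65, -0.42 and -0.55). The part of adipocyte markers in the matrix and lipid synthesis differences was not tested.

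**Figure D3:**
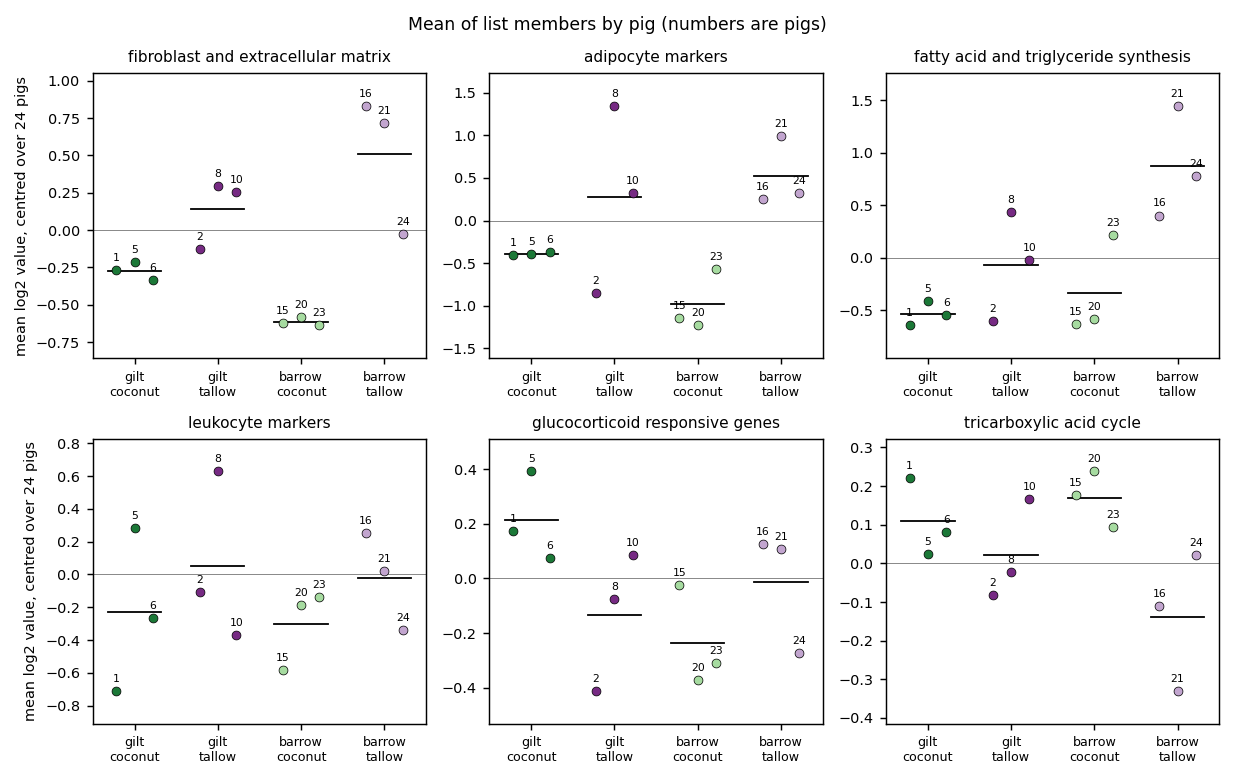
Mean log2 value of the tested genes of 6 lists, centred over the 24 pigs, for each pig fed coconut oil or beef tallow, with group means as bars and pig numbers beside the points. In gilts the means of the matrix genes do not overlap between the fats, which chance alone gives with a probability of 0.1. The adipocyte markers of the beef tallow gilts run from -0.85 (pig 2) to 1.34 (pig 8) around coconut oil values of -0.41 to -0.37.

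Enzymes that build fatty acids and triglycerides followed a like pattern. Of 13 tested genes 9 had a negative difference (median -0.29, or -0.11 without pig 8 and -0.18 without pig 6), none passed the threshold, and 2, FASN and DGAT2, did not overlap. Fatty acid synthase (FASN), which makes palmitate, had signals of 177, 279 and 315 with coconut oil and 349, 604 and 670.5 with beef tallow. The coconut oil gilts were all lower, by -1.06 ± 0.82 (95% interval -2.76 to 0.65). DGAT2, which adds the last fatty acid of a triglyceride, was at 227, 252 and 320.3 with coconut oil and 378, 1617 and 761 with beef tallow, a difference of -1.55 ± 0.82. Pig 8 was again the highest gilt.

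Stearoyl-CoA desaturase (SCD), which makes oleate from stearate, was at 321, 243 and 289.7 with coconut oil and 308, 1024 and 678 with beef tallow, a difference of -1.08 ± 1.13. The elongase ELOVL6 was at 456, 435 and 526 with coconut oil and 488, 2643 and 1158 with beef tallow and differed by -1.28 ± 0.77. In both genes pig 2 lay among the coconut oil gilts and pigs 8 and 10 above them. Pyruvate carboxylase (PC), which supplies oxaloacetate, differed by -0.88 ± 0.54 with the same arrangement of pigs.

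Genes of fatty acid uptake and of the switch between fuels were mixed, with 11 of 17 positive and a median of 0.13. This median was -0.12 without pig 2, 0.02 or 0.03 without pig 5, 6 or 10, and 0.19 without pig 8. Lipoprotein lipase (LPL), which frees fatty acids from circulating triglycerides, had signals of 11478, 9955 and 10717 with coconut oil and 5948, 10269 and 11748 with beef tallow and a difference of 0.26 ± 0.29. CPT1B, the gate of fatty acid entry into muscle mitochondria, differed by 0.24 ± 0.38, and PDK4, the kinase that restrains glucose oxidation, by 0.16 ± 0.28. The signs of LPL and PDK4 turned without pig 2. UCP3, a mitochondrial carrier of muscle, was at 749.9, 549 and 219.9 with coconut oil and 692, 614 and 713 with beef tallow, with pig 6 the lowest gilt and a difference of -0.58 ± 0.51. ACSL3, which activates fatty acids, had 586, 392 and 471 with coconut oil and 975, 713 and 578 with beef tallow; pig 1 lay just above pig 10, and the difference was -0.63 ± 0.32.

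The enzymes of fatty acid oxidation were split, with 13 of 22 positive and a median of 0.04 (-0.04 to 0.13 over the omissions), and 3 of them did not overlap, all lower with coconut oil. HSD17B4, the peroxisomal bifunctional enzyme, was at 1249, 1366 and 1284 with coconut oil and 1476, 2469.7 and 2156 with beef tallow, a difference of -0.61 ± 0.27. DECR1, needed to oxidise unsaturated fatty acids, was at 1436, 1443 and 1364 with coconut oil and 1524, 1511 and 2251 with beef tallow, a difference of -0.29 ± 0.20. Both were lower in every coconut oil gilt. In the tricarboxylic acid cycle 17 of 21 genes had a positive difference (median 0.08, 0.01 to 0.17 over the omissions). Without overlap, 2 were higher and 0 lower, against 4.42% and 6.46% of all genes. DLAT, a subunit of pyruvate dehydrogenase, was at 1793, 1380.4 and 1644 with coconut oil and 1304, 1136 and 1272 with beef tallow, higher in every coconut oil gilt by 0.37 ± 0.20. Of the respiratory chain genes, 10 of 31 were positive (median -0.12). Leaving out pig 6, 8 or 10 gave -0.04, -0.06 and -0.08, and leaving out pig 5 gave -0.15. The complex III subunit UQCRB, at 16847, 19254 and 17239 with coconut oil and 19358, 22719 and 22122 with beef tallow, was lower in each coconut oil gilt, by -0.27 ± 0.18.

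Among genes of glycolysis and glycogen, 13 of 23 were positive and 4 were higher with coconut oil without overlap (median 0.08, 0.04 to 0.09 over the omissions). SLC2A4, the insulin-responsive glucose transporter GLUT4, was at 746, 883 and 908 with coconut oil and 451, 406 and 588 with beef tallow. Every coconut oil gilt was above every beef tallow gilt, by 0.82 ± 0.35, but the gene's other probe set had the opposite sign. Hexokinase 1 (HK1), the first enzyme of glycolysis, was at 338, 546 and 437 with coconut oil and 533, 932 and 613 with beef tallow, with pigs 5 and 2 overlapping, and differed by -0.64 ± 0.30. ALDOC, an aldolase isoform, was at 338, 279.6 and 441 with coconut oil and 253, 1533 and 1242 with beef tallow; pigs 8 and 10 were high, pig 2 was the lowest gilt, and the difference was -1.18 ± 0.74. In cholesterol synthesis 6 of 11 genes were positive (median 0.05, -0.05 to 0.27 over the omissions). FDPS, the farnesyl diphosphate synthase, was the member without overlap, at 473, 517 and 491 with coconut oil and 411, 394 and 409.5 with beef tallow, higher with coconut oil by 0.28 ± 0.15.

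Of the 13 atrophy and FOXO targets 7 were positive, with a median of 0.05 (-0.01 to 0.16 over the omissions), and 2, FOXO1 and KLF15, were higher with coconut oil without overlap. PPARGC1A, listed with the immediate early genes and known as a coactivator that drives mitochondrial gene expression, had signals of 20875, 28387 and 25499.5 with coconut oil and 7329, 12231 and 15495 with beef tallow. The groups did not overlap; the difference was 1.15 ± 0.62 (95% interval -0.15 to 2.45), or 2.22-fold, and pig 2 was the lowest gilt. In gilts fed olive oil PPARGC1A ranged from 2081 to 19384, and in those fed soybean oil from 7673 to 17253. FOXO1, a transcription factor active in fasting, was at 1721, 2320.1 and 1927 with coconut oil and 739, 660.2 and 1656 with beef tallow, a difference of 1.08 ± 0.41. Each coconut oil gilt was higher, and pig 10 came close to pig 1.

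KLF15, a transcription factor of amino acid and lipid use in muscle, was at 1593, 2829 and 2069.7 with coconut oil and 969, 1046 and 1311 with beef tallow. Every coconut oil gilt was higher, by 0.94 ± 0.29 (95% interval 0.34 to 1.53), at an unadjusted p of 0.0037 (limma). Olive oil gilts lay at 1208 to 1284 and soybean oil gilts at 1231 to 1627. The muscle ubiquitin ligase atrogin-1 (FBXO32) was at 9914, 11532 and 12480.4 with coconut oil and 4511, 2630.0 and 10528 with beef tallow; pig 10 was among the coconut oil gilts, and the difference was 1.17 ± 0.64.

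Glucocorticoid responsive genes had the highest median, 0.48, with 11 of 13 positive, against 47.0% of all genes. None passed the threshold, and 2 did not overlap. PER1, a clock gene that glucocorticoids induce, was at 4061, 4345 and 3722 with coconut oil and 2825, 2929.6 and 2919 with beef tallow. The beef tallow gilts were nearly equal and all lower, by 0.48 ± 0.17. CEBPD, a stress-induced transcription factor, was at 2485, 3690.0 and 3374 with coconut oil and 1015, 1869.8 and 2443 with beef tallow, a difference of 0.91 ± 0.42 in which pig 1 stood just above pig 10. KLF9 was at 5323, 5807 and 4599 with coconut oil and 3529, 2426 and 5661 with beef tallow; pig 10 overlapped the coconut oil gilts, and the difference was 0.52 ± 0.26. The list median stayed between 0.29 and 0.47 when any single gilt was left out. The mean over the list, centred over the 24 pigs, overlapped between the fats. It was 0.17, 0.39 and 0.07 with coconut oil and -0.41, -0.08 and 0.09 with beef tallow. The group mean was 0.17 in olive oil gilts and 0.12 in soybean oil gilts. In barrows the same list had a median of -0.36, with 5 of 13 positive.

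Of 8 clock genes 6 were positive (median 0.31, or 0.18 without pig 8 and 0.38 without pig 2). BHLHE40, a repressor of the clock, differed by 0.73 ± 0.46 with overlap. Immediate early genes, which respond within minutes to stimuli, were positive in 13 of 17 (median 0.25), but the median was -0.01 without pig 2 and 0.59 without pig 8. The orphan nuclear receptor NR4A3 had 2 probe sets. The brighter had signals of 1926, 5365 and 4333 with coconut oil and 871, 1551 and 3481 with beef tallow, overlapping, with a difference of 1.08 ± 0.60. The dimmer had 521, 971 and 945 with coconut oil and 182, 363 and 481 with beef tallow, without overlap, and a difference of 1.30 ± 0.63. GADD45A, a stress-induced growth arrest gene, differed by 0.64 ± 0.39.

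Genes of amino acid metabolism were positive in 16 of 22 (median 0.18, 0.08 to 0.22 over the omissions). Without overlap, 1 was higher and 1 lower, near the 4.42% higher and 6.46% lower of all genes. ALDH4A1, of proline breakdown, was at 837, 641 and 605 with coconut oil and 395, 537 and 396 with beef tallow, higher in each coconut oil gilt by 0.65 ± 0.28. Ornithine aminotransferase (OAT) was at 1177, 1283 and 819 with coconut oil and 1938, 1668 and 1391 with beef tallow, lower in each coconut oil gilt, by -0.62 ± 0.24. PSAT1, of serine synthesis, was at 530.1, 429 and 399.8 with coconut oil and 412, 1167 and 1179 with beef tallow; pigs 8 and 10 were high, pig 2 lay among the coconut oil gilts, and the difference was -0.88 ± 0.47. Glutamine synthetase (GLUL) had a brighter probe set with overlap (0.52 ± 0.26) and a dimmer one at 12306, 10662 and 19428 with coconut oil and 4905, 9713 and 4237 with beef tallow. The dimmer one was higher in every coconut oil gilt, by 1.22 ± 0.41. In the growth axis 5 of 12 genes were positive (median -0.08, -0.10 to 0.02 over the omissions). IGF1, the growth factor of muscle, differed by -0.31 ± 0.28, with the opposite sign in its other probe set, and GRB10, an adaptor that restrains insulin signalling, by 0.60 ± 0.31.

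Leukocyte markers had negative differences in 15 of 17 genes (median -0.30), with none free of overlap, and leaving out pig 8, 1, 5 or 10 moved the median to -0.04, -0.13, -0.53 and -0.51. LAPTM5, a lysosomal protein of blood cells, was at 282, 669 and 367 with coconut oil and 692, 981 and 471 with beef tallow, a difference of -0.74 ± 0.34; pig 5 was above pig 10. Summed signals of 7 leukocyte markers were 2179 to 5292 with coconut oil and 3358 to 6251 with beef tallow. Interferon response genes were negative in 14 of 22 (median -0.26), and leaving out pig 1, 5 or 10 moved the median to 0.08, -0.55 and -0.11. MX1, an antiviral GTPase, was at 289.7, 992 and 262 with coconut oil and 905, 594 and 862 with beef tallow, with pig 5 the highest of all gilts, a difference of -0.87 ± 0.49. GBP2, another interferon-induced GTPase, was at 190.2, 296 and 1070.4 with coconut oil and 226, 221 and 176 with beef tallow, and its difference of 0.92 ± 0.42 rested on pig 6.

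Markers of other cells were measured as well. Endothelial markers were negative in 11 of 17, with a median of -0.17. It was 0.02, -0.05 and -0.06 when pig 8, 6 or 1 was left out, and -0.22 without pig 2. The summed signal of endothelial markers was 5797 to 8154 with coconut oil and 6810 to 8877 with beef tallow. All 3 tested nerve and Schwann cell genes were negative (median -0.42, -0.68 to -0.25 over the omissions). MBP, the myelin basic protein, was at 499.7, 555 and 321 with coconut oil and 415, 3405 and 681 with beef tallow. Pig 8 was far above the other gilts. The dimmer MBP probe sets had the opposite sign, at 0.65 and 0.85, the last without overlap. Smooth muscle markers had a median of -0.03 (-0.16 to 0.11 over the omissions) and satellite cell genes of -0.05 (-0.14 to 0.14). The myogenic factor MYF6 differed by -0.68 ± 0.50 and myostatin (MSTN), the brake on muscle growth, by 0.43 ± 0.40, both with overlap. Of 3 erythrocyte genes 2 were negative, with a median of -0.31 (-0.64 to 0.06 over the omissions). ALAS2, of haem synthesis, differed by -0.42 ± 0.35, and the globins HBM by -0.31 ± 0.36 and HBB by 0.07 ± 0.18, all with overlap.

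Contractile genes were close between the fats. Slow fibre genes had a median of -0.02 (-0.09 to 0.16 over the omissions), and MYH7, the slow myosin heavy chain, was at 44602, 39879 and 46920.4 with coconut oil and 36898, 47601 and 41198 with beef tallow, a difference of 0.07 ± 0.23. Fast fibre genes were positive in 9 of 10 with a median of 0.09 (0.04 to 0.12). The fast myosin MYH2 was at 16148, 3244 and 4337 with coconut oil and 5836, 1757 and 8346 with beef tallow; pig 1 was the highest and pig 8 the lowest gilt, and the difference of 0.47 ± 0.49 changed sign without either. Ribosomal protein genes were negative in 41 of 51, with a small median of -0.07 (-0.14 to 0.03 over the omissions). Proteasome genes were positive in 21 of 35 (median 0.05, 0.01 to 0.11) and chaperones in 14 of 22 (0.05, -0.02 to 0.14). The mitochondrial chaperone HSPA9 was higher in each coconut oil gilt, by 0.25 ± 0.17.

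Among the 12 genes with the smallest unadjusted p in each direction, several lay near the filter signal. LOC100621559, an uncharacterised locus, had signals of 50.8, 38.6 and 22.2 with coconut oil and 149, 139 and 102 with beef tallow. The coconut oil gilts were all lower, and below the filter signal of 87.2, so the difference of -1.84 ± 0.35 (adjusted p = 0.449, limma) compares values near the floor on that side; another of the gene's probe sets was positive. With array weights this probe set passed the threshold (limma adjusted p = 0.0362). RNF13, a membrane-bound ubiquitin ligase, was at 160.5, 133 and 116 with coconut oil and 433, 849 and 667 with beef tallow. Every coconut oil gilt was lower, by -2.20 ± 0.50 (95% interval -3.23 to -1.17), or 4.6-fold.

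Next among the lower ones came PLPPR2, a relative of lipid phosphatases, at 30.9, 84.0 and 100.4 with coconut oil and 152, 178 and 189 with beef tallow (-1.42 ± 0.36). IFNAR2, a chain of the type I interferon receptor, was at 86.7, 141 and 77.4 with coconut oil and 237, 189.9 and 203 with beef tallow (-1.08 ± 0.29). TES, a focal adhesion protein, was at 18.8, 57.0 and 97.8 with coconut oil and 128, 246 and 102 with beef tallow (-1.62 ± 0.47). In each of these the groups did not overlap, but the other PLPPR2 probe set had the opposite sign. PLPPR2, IFNAR2 and TES each had coconut oil values below the filter signal of 87.2, so these differences also compare values near the floor. The others were FGD4 (-0.77), an activator of the GTPase CDC42; CALML4 (-1.11), calmodulin-like; and TOP2A (-1.27), the topoisomerase of dividing cells. IFT27 (-0.70), of ciliary transport, STX6 (-0.70), of Golgi traffic, and RPS27A (-0.99), a ubiquitin-ribosomal fusion protein, also belonged to them.

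On the higher side ABCC6, a membrane transporter, had signals of 431, 318 and 367 with coconut oil and 252, 179 and 240.1 with beef tallow and a difference of 0.74 ± 0.21. NEU1, the lysosomal sialidase, was at 219.9, 287 and 274 with coconut oil and 142, 156 and 142 with beef tallow (0.81 ± 0.26). AKAP13, an anchor of protein kinase A, was at 217, 232 and 301 with coconut oil and 113, 114 and 172 with beef tallow (0.92 ± 0.30). All 3 were higher in every coconut oil gilt. Beside KLF15 the others were AAED1 (0.75), PIR (0.64), the chromatin reader PHF20 (0.80), the elongation factor SUPT6H (0.55), SELRC1 (0.60), the complex I subunit NDUFV3 (0.66), POLR1A (0.64), the largest subunit of RNA polymerase I, and SOCS6 (0.69), whose probe sets, like those of PHF20, differed in sign.

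**Figure D4:**
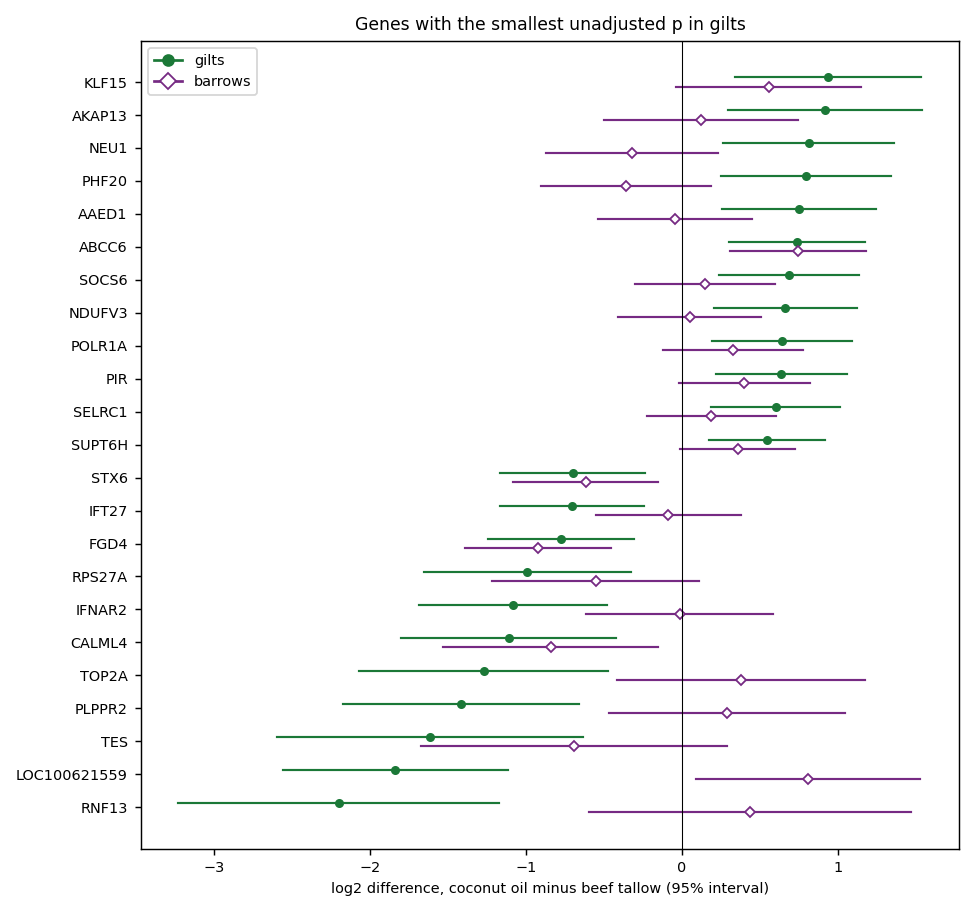
Log2 differences with 95% intervals of 23 of the 24 genes with the smallest unadjusted p in gilts (green), and of the same genes in barrows (purple, open diamonds). The genes were chosen by their values in gilts, so the gilt intervals leave out 0 by that choice; in barrows the differences of RNF13, LOC100621559, TOP2A, PLPPR2, NEU1, PHF20 and AAED1 lie on the other side of 0.

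The 5 largest differences without overlap in each direction, beside the NR4A3, GLUL, RNF13 and LOC100621559 probe sets above, were as follows. UCHL1, a deubiquitinase of nerve cells, was at 16.8, 51.2 and 95.7 with coconut oil and 335, 276 and 245 with beef tallow, lower in every coconut oil gilt by -2.67 ± 1.19. NPG4, the antimicrobial peptide protegrin 4, was at 73.8, 59.6 and 90.3 with coconut oil and 189.8, 1299.7 and 156 with beef tallow (-2.18 ± 1.03), with pig 8 far above the rest. C3H2orf40 was at 36.9, 154 and 36.8 with coconut oil and 381, 309 and 167 with beef tallow (-2.16 ± 0.87). In the other direction CAPZB, which caps actin filaments, was at 117, 124 and 165 with coconut oil and 69.6, 56.0 and 34.7 with beef tallow (1.36 ± 0.65), while its other probe sets differed by -0.13 and 0.02. SLC25A30, a mitochondrial carrier, was at 554, 600.3 and 654 with coconut oil and 378, 238 and 182 with beef tallow (1.24 ± 0.45). SLC2A5, the fructose transporter, was at 496, 323 and 433 with coconut oil and 97.8, 178 and 317 with beef tallow (1.21 ± 0.75), and pig 10 stood just below pig 5. UCHL1, NPG4 and C3H2orf40 each had coconut oil values below the filter signal of 87.2, and in CAPZB all beef tallow values were below it. The differences of these genes therefore compare values near the floor on that side.

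In barrows fed the same fats the median size of a difference was 0.29, against 0.18 in gilts. There 299 probe sets (2.08%) passed the threshold, 51 (0.355%) higher and 248 (1.73%) lower with coconut oil. After median centring of the arrays 392 passed, 274 higher and 118 lower, and after quantile normalization 93, 28 higher and 65 lower. For the values as deposited, leaving out pig 16 or pig 21 gave a count of 0, and leaving out pig 15, 20, 23 or 24 gave 3, 2, 17 and 504. Of the 299, 270 (90.3%) had the same sign in gilts, against 63.6% of all tested probe sets, and 77 (25.8%) did not overlap in gilts, all in the barrow direction, against 11.6%. Their median difference, taken in the barrow direction, was 0.35 in gilts and 1.19 in barrows, where they had been chosen for passing. Across all 14361 probe sets the differences of gilts and barrows had a Pearson correlation of 0.43, as a description; no pig is shared, but probe sets are not independent replicates.

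**Figure D5:**
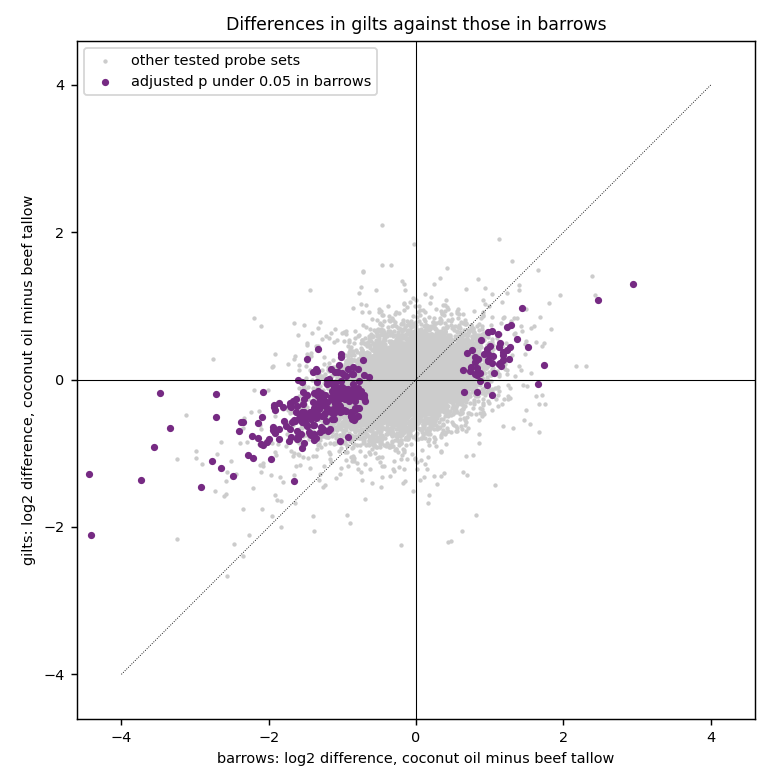
Log2 difference in gilts (vertical) against that in barrows (horizontal) for each tested probe set, with the 299 that passed the threshold in barrows in purple and a dotted line of equal differences. Most purple points, 270 of 299, have the same sign in gilts, and most lie nearer 0 on the gilt axis.

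The median of the matrix genes was -0.42 in gilts and -0.97 in barrows, where all 30 were negative (58.2% of all genes) and 11 passed (2.19% of all genes). THY1 was at 2425, 3434 and 2697 in barrows fed coconut oil and 8091, 6770.2 and 4921 in those fed beef tallow, a fall of 1.19 that passed (limma adjusted p = 0.0292), beside -0.70 in gilts. HK1 (-1.29 in barrows, -0.64 in gilts), PSAT1 (-2.11 and -0.88), SFRP1 (-2.49 and -1.31) and FKBP10 (-1.91 and -0.72) also passed in barrows. Lipid synthesis genes had a median of -0.996 in barrows; FASN there was 313, 261 and 1829.8 with coconut oil and 2109, 8929 and 3948 with beef tallow, a difference of -2.98 that did not pass. Oxidative phosphorylation had a median of 0.16 in barrows, beside the small negative one in gilts that moved with single pigs.

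Whether the fat difference itself differed between the sexes was tested as the barrow minus the gilt difference. No probe set passed (0 of 14361, 0%; smallest adjusted p = 0.358, limma), and 794 (5.53%) had an unadjusted p under 0.05. The median half-width of the unadjusted 95% interval of this term was 0.76. The adjusted threshold called for larger terms, so that unequal responses above that size could also go undetected. The smallest p belonged to LOC100621559, with barrow signals of 149, 124 and 156 on coconut oil and 132, 40.7 and 97.0 on beef tallow and a term of 2.65 ± 0.49. In RNF13 the barrows were at 541, 674 and 615 and 228, 637 and 618, overlapping, with a term of 2.64 ± 0.70. In MAP4, a microtubule protein, the gilts were at 1652, 1671 and 1934 with coconut oil and 1992, 1883 and 2014 with beef tallow, a difference of -0.17 ± 0.16, while the barrow difference of 0.83 passed; the term was 1.00 ± 0.23. FADS1, the delta-5 desaturase of long-chain fatty acids, was at 94.5, 133 and 68.0 with coconut oil and 79.0, 101 and 78.0 with beef tallow in gilts (0.15 ± 0.24), and its barrow difference of -1.15 passed, with a term of -1.30 ± 0.34. KHNYN, an antiviral cofactor, differed by -0.04 ± 0.22 in gilts and -1.20 in barrows (term -1.16 ± 0.31). RPS6KC1 and FAM91A1 had terms of 0.82 ± 0.21 and -0.99 ± 0.26. None of these terms passed the threshold, and in MAP4, KHNYN and FAM91A1 another probe set of the gene had the opposite sign in gilts.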

How the data were processed

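Probe set signals of 24 porcine Affymetrix arrays were deposited by the authors as linear intensity values in 1 table; the summarisation and scaling are not given in the sources used here. The mean after trimming 2% of values at each end was 500.1 to 500.2 on every array. Signals were turned into log2(signal + 1). Of 24123 probe sets, 188 controls were left out (124 labelled AFFX and 64 reporter probe sets labelled RPTR), and the 14361 with a mean log2 value at or above the 40th percentile (signal 87.2) were tested. The number of pigs limits the precision, and arrays give no counts.

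Of the 23935 others, 10069 probe sets had 1 gene symbol in the platform annotation, 198 several and 13668 none; 9961 of the 10069 had a gene identifier in RefSeq (Sscrofa11.1). Of several probe sets of a gene, the brightest stood for it in lists.

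limma 3.58.1 in R 4.3.3 was fitted to 8 group means over all 24 arrays (lmFit, eBayes), for coconut oil minus beef tallow in gilts, in barrows, and the difference between them; tests were two-sided with Benjamini-Hochberg adjustment over all tested probe sets. The code was tested on simulated data. Where nothing passed, genes named were the 12 with the smallest unadjusted p and the 5 largest without overlap in each direction, 3 per list, 8 of the sex difference and a fixed set; further matrix members were chosen after their values were seen. 1 of the genes with the smallest p is not reported here. The members, lists and tests were chosen with earlier results of these data known. p-values measure the spread between pigs whose pens are unknown. Alternatives were the filter, normalization, pseudocount, array weights, the samples in the fit, 1 probe set per gene and leaving out each pig.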

Additional observations from a re-analysis of the deposited data

Results flagged for a closer look

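IFIT2, an interferon-induced antiviral gene, stood out because its groups did not overlap in either sex and lay in opposite directions. In gilts 1 of its probe sets had signals of 278, 438 and 372 with coconut oil and 271, 244 and 246 with beef tallow, a difference of 0.49 ± 0.20; in barrows the signals were 194, 158 and 147 with coconut oil and 252, 233 and 308 with beef tallow, a difference of -0.66. The barrow minus gilt term was -1.15 ± 0.29 and did not pass the threshold (limma adjusted p = 0.855). The gene's other probe sets differed in gilts by -0.21 and 0.13, so they did not share a sign. The same arrangement, groups without overlap in both sexes and opposite directions, held for 29 probe sets higher in gilts and lower in barrows and 18 of the reverse among the 14361 tested, so it is not particular to IFIT2.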

How the results depend on the processing

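In gilts the count past the threshold was 0 without any single pig; it was 1 with no filter (a probe set with no symbol, -2.54, adjusted p = 0.00473, limma) and 1 with array weights (LOC100621559, -1.92, adjusted p = 0.0362). At an unadjusted p under 0.05 there were 675 of 14361 probe sets in the main fit. This count was 1174 of 23935 with no filter and 411 of 9574 with the filter at the 60th percentile. With 1 probe set per gene it was 220 of 5337. Over the same 14361 it was 1726 with array weights and 935 with the 6 arrays alone. Without a pig it was 450 to 903 (450 without pig 6, 468 without pig 8). With no filter, 1212 of 23935 probe sets were higher and 1473 lower without overlap. In barrows the alternatives were chosen after seeing the data. There 0 passed with no filter, 93 after quantile normalization and 622 with array weights. With 1 probe set per gene 173 of 5337 passed, and without a pig 0 to 504. The barrow minus gilt term passed in 1 probe set with array weights (LOC100621559, 2.88, limma adjusted p = 0.0407) and in 0 without any single pig. At an unadjusted p under 0.05 it gave 1216 of 23935 with no filter and 509 of 9574 at the 60th percentile. With 1 probe set per gene it gave 280 of 5337. Over the same 14361 it gave 1215 with array weights and 548 to 1157 without a pig. The causes were not tested.

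Of the 107 gene results named, MYH2 (-0.023) and HBB (-0.043) changed sign with array weights. Leaving out 1 pig gave -0.024 to 0.33 for PDK4, -0.038 to 0.45 for LPL and -0.019 to 0.16 for MYH7, below 0 without pig 2. It gave -0.33 to 0.51 for LEP (below 0 without pig 2, 5 or 10), -0.23 to 0.93 for MYH2 (without pig 1 or 8), -0.64 to 0.066 for HBM (above 0 without pig 1) and -0.013 to 0.17 for HBB (without pig 8). No paired analysis was possible because the groups share no replicate numbers. With 3 pigs a group, the smallest exact p of a single value is 0.1, and pens could not be allowed for. Probe sets near the filter signal in gilts, such as those of LOC100621559, PLPPR2, IFNAR2, TES, FADS1, UCHL1, NPG4, C3H2orf40 and CAPZB, give differences near the floor.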

Other observations

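Of the 14361 tested probe sets, 1659 (11.6%) did not overlap between coconut oil and beef tallow in gilts. Of these, 543 did not overlap in barrows either. The share without overlap in barrows over all probe sets was not counted, so the 543 have no chance level beside them. Of the 543, 496 (91.3%) had the same direction in both sexes, 159 higher and 337 lower with coconut oil. Over all tested probe sets 63.6% had the same sign in both sexes, and over the 1659 without overlap in gilts 73.7%. The 543 were also selected for separation in barrows, so these shares are of unlike sets. The genes given here were chosen after their values were seen. NR3C1, the glucocorticoid receptor, differed by 0.43 in gilts and 0.62 in barrows. COX10, of haem A synthesis for cytochrome oxidase, differed by 0.80 and 0.66, the mitochondrial aldehyde dehydrogenase ALDH2 by 0.40 and 0.46, and the corepressor NCOR1 by 0.42 and 0.53. On the lower side were the lysosomal lipase LIPA (-1.01 and -1.17), the desaturase SCD5 (-1.18 and -0.92), beta-catenin CTNNB1 (-0.79 and -1.36), the basement membrane protein NID2 (-0.67 and -1.26) and MARCKS (-0.67 and -1.17), a membrane substrate of protein kinase C. CTNNB1, NID2 and MARCKS passed the threshold in barrows, and none of these genes did in gilts.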
